A study of Mus musculus with 1 sample.

Results

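Mitochondrial ribosomal protein genes were read in c-kit+ bone marrow (BM) cells of control mice. The members were all protein-coding genes whose symbol in the GENCODE M21 annotation starts with Mrpl or Mrps and a digit, with pseudogene symbols left out, and the rule used no measured value. It found 78 genes among the 54532 gene identifiers of the deposited table, 49 named for the large subunit (Mrpl) and 29 for the small subunit (Mrps). The study asked how loss of *Gadd45g* changes hematopoietic progenitors in mice that develop a myeloproliferative neoplasm (MPN). The group used here is Ctrl, C57BL/6 mice with the wild type genotype and no stated treatment, from whose marrow c-kit+ cells were sorted. The *Gadd45g*-deficient MPN library was not analysed here, so the values describe 1 library with no replicate and no comparison between genotypes. How many mice, of what age, gave the cells is not given in the sources used here.

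Mitochondria keep their own ribosome, which translates only the few respiratory chain subunits encoded in mitochondrial DNA. Its ribosomal RNAs are made in the organelle, but all of its proteins are encoded in the nucleus, translated in the cytosol and imported. Many of these proteins have homologues in the bacterial ribosome, and others are found only in mitochondria. Blood progenitors lacking mitochondrial translation cannot build complexes of the respiratory chain that need the mitochondrially encoded subunits.

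Values are FPKM, fragments scaled by the exon length of a gene and by the total of the library, as the authors deposited them. Multiplied by exon length, the bases covered by any annotated exon of a gene, they were whole multiples of 1 common step for 96.4% of genes above 0, within 0.01 of a whole number. These multiples were read as fragments. They sum to 17113323 over the library and to 33299 over the 78 members. The multiple was whole for 73 members, *Mrpl53* at 0 among them. A 95% Wilson interval of the fragments is given in FPKM where the multiple was whole and above 0, which was the case for 72 members. It covers counting error only and says nothing of the spread between mice.

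The sorted population was checked against marker genes. *Kit*, the gene of the sorting antigen, had 7.17 FPKM (interval, 6.74 to 7.62), and 50 members were above it. All 6 mature neutrophil markers and all 5 erythroid markers were detected at far higher levels, although the labelled gate is lineage-negative. The neutrophil list, led by *S100a9* at 26677 FPKM, made up 12.3% of the summed FPKM. The erythroid list, led by *Hba-a1* at 25466 FPKM, made up 9.90%. The B cell list summed to 361 FPKM with *Cd79a* highest at 173 FPKM, the macrophage list to 127 FPKM with *Csf1r* highest at 51.5 FPKM, and the T cell list to 16.2 FPKM with *Cd3d* highest at 8.55 FPKM. The lowest gene was *Ltf* (2069 FPKM) in the neutrophil list, *Ms4a1* (17.8 FPKM) in the B cell list, *Adgre1* (29.9 FPKM) in the macrophage list and *Cd3e* (2.62 FPKM) in the T cell list. No marker of these lists was at 0. The part of these cells in the levels of the members was not tested, and in a bulk library fewer cells of a type and less RNA per cell cannot be told apart.

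The DNA in front of several members is shown first, since the arrangement of these genes on the chromosome is one of the features described after the levels. The 69 members found in the RefSeq promoter table (build GRCm38.p6) have windows of 250 bases before to 50 bases after a transcription start. The stretches printed lie before the start of the member, are free of any annotated exon and read 5′ to 3′ on the strand of the member. Capitals mark a match to CCGGAAG, the core bound by ETS factors such as GABP (nuclear respiratory factor 2), or to GCGCATGC, the core of the NRF1 motif, on either strand. *Mrpl34*, the member with the highest level, is shown from chr8:71464826-71464925 on the forward strand, and *Mrpl22*, with both motifs, from chr11:58171561-58171660 on the forward strand.
Mrpl34: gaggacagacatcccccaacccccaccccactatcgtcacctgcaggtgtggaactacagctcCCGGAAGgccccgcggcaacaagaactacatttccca
Mrpl22: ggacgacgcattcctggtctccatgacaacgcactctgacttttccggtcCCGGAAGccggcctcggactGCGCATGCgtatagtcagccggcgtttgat

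The next 4 stretches lie between a member and a gene that starts close by and is read in the opposite direction, so that both genes share the DNA between their starts. They are *Mrpl10* and *Lrrc46* (chr11:97041408-97041559, forward strand), *Mrps27* and *Ptcd2* (chr13:99344706-99344785, forward strand), *Mrps12* and *Sars2* (chr7:28741822-28741991, reverse strand), and *Mrpl49* and *Fau* (chr19:6057786-6057843, reverse strand). The first holds an NRF1 match, the second an ETS match, and the letters of neither motif are in the other two.
Mrpl10-Lrrc46: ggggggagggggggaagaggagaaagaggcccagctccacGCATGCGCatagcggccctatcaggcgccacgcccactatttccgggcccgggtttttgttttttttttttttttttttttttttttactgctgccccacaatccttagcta
Mrps27-Ptcd2: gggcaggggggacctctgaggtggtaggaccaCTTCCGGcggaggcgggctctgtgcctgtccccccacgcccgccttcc
Mrps12-Sars2: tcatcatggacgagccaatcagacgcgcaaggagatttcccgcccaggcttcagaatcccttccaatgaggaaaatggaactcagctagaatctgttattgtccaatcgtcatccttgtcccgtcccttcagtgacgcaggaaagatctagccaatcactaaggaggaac
Mrpl49-Fau: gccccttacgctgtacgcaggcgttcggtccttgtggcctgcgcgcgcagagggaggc

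Nearly every mitochondrial ribosomal protein gene was transcribed in these cells, at moderate levels. Of the 78 members, 77 reached 1 FPKM, against 46.8% of the 21995 protein-coding genes in the table. Their median was 9.69 FPKM, close to the median of 8.66 FPKM over the 10290 protein-coding genes at 1 FPKM or more, and 42 members lay above that value. In fragments not divided by length the members were lower, with a median of 401 against 646.5 for those genes. The quartiles were 5.23 and 19.8 FPKM, 3.79 times apart, and 74 members lay between 2 and 30 FPKM. The quartiles were 2.90 times apart in the cytosolic ribosomal protein genes, 2.74 times in the nuclear respiratory chain genes and 5.43 times in the protein-coding genes at 1 FPKM or more. Together the members held 0.238% of the summed FPKM and 0.195% of the recovered fragments. The SD of the log2 level over the 77 members above 0 was 1.12, and by this measure the members were less spread than the cytosolic ribosomal protein genes (1.70) and the nuclear respiratory chain genes (1.44).

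**Figure D1:**
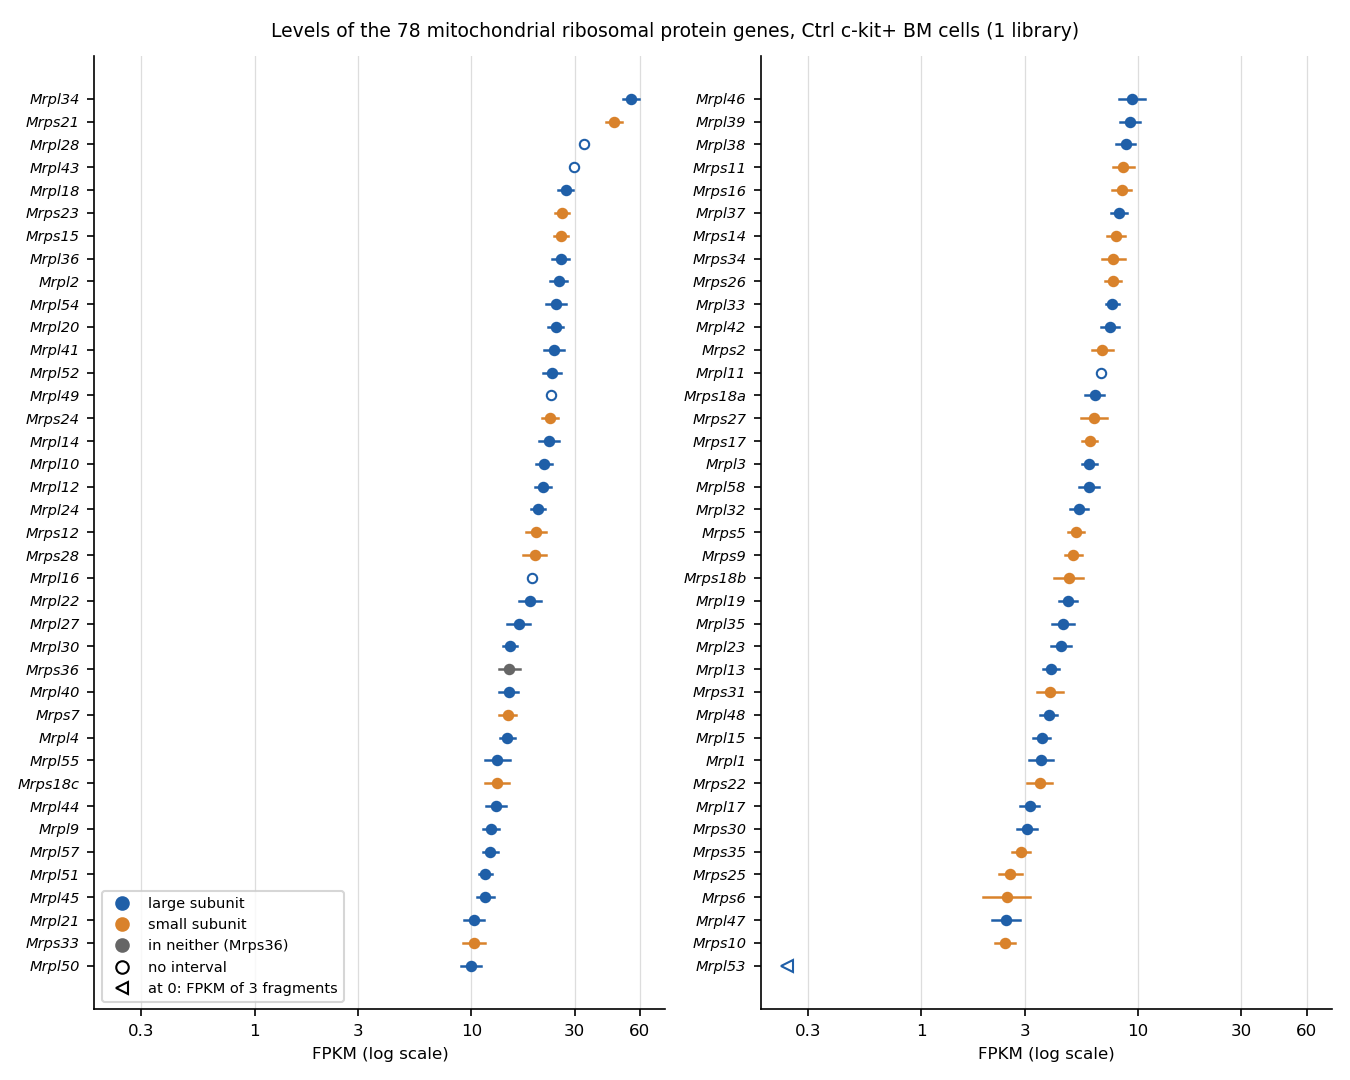
FPKM (log axis) of each of the 78 members in the 1 Ctrl library, ordered from high to low and coloured by the subunit in which structures place the protein. Lines are 95% Wilson intervals for counting error, and open circles are the 5 members above 0 without an interval. The triangle marks the FPKM that 3 fragments would give for *Mrpl53*, which was at 0. Large-subunit and small-subunit genes are mixed along the whole range from 2.44 to 54.8 FPKM.

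*Mrpl34*, encoding the homologue of the bacterial large-subunit protein L34 (ENSMUSG00000034880, chr8:71464959-71465747), had the highest level, 54.8 FPKM from 525 fragments (interval, 50.3 to 59.7). *Mrps21*, encoding the homologue of bacterial S21 (ENSMUSG00000054312, chr3:95862634-95871519), followed with 45.4 FPKM (interval, 41.6 to 49.4). The intervals of both genes stood apart from each other and from those of all other members with an interval. Next came *Mrpl28* with 33.3 FPKM, *Mrpl43* with 29.8 FPKM and *Mrpl18* with 27.3 FPKM. *Mrpl28* and *Mrpl18* encode homologues of bacterial proteins, whereas the product of *Mrpl43* is specific to mitochondria. *Mrps23* (26.2 FPKM), *Mrps15* (26.0 FPKM), *Mrpl36* (25.8 FPKM), *Mrpl2* (25.3 FPKM) and *Mrpl54* (24.6 FPKM) completed the first 10, all with overlapping intervals. Among the 72 members with an interval, 71 pairs were neighbours in the order, and the intervals overlapped in all but 2 of them, *Mrpl34* with *Mrps21* and *Mrps21* with *Mrpl18*. The order of close members is therefore not resolved even at the level of counting error.

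At the other end, *Mrps10*, encoding the homologue of bacterial S10 (ENSMUSG00000034729, chr17:47368887-47381417), had 2.44 FPKM (interval, 2.18 to 2.73), the lowest level above 0. *Mrpl47* (2.47 FPKM), *Mrps6* (2.48 FPKM), *Mrps25* (2.58 FPKM) and *Mrps35* (2.89 FPKM) had intervals that overlapped that of *Mrps10*. *Mrps6*, a homologue of bacterial S6, had the fewest fragments of any member above 0, with 60. *Mrps30* had 3.08 FPKM, *Mrpl17* 3.17 FPKM, *Mrps22* 3.52 FPKM and *Mrpl1*, encoding the protein of the L1 stalk, 3.57 FPKM. *Mrpl34* was 22.5 times *Mrps10* in FPKM.

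*Mrpl53* (ENSMUSG00000030037, chr6:83109040-83109939, forward strand) was the 1 member below 1 FPKM and was listed at 0. For its exon length, 3 fragments would have given 0.241 FPKM. Of its exon bases, 88.0% are also exon of another gene, and every window of 50 bases in its longest coding transcript is also present in a transcript of the protein-coding gene *Gm42688*, which had 0.611 FPKM. How fragments lying on more than 1 gene were assigned is not given in the sources used here, and whether this set the value of *Mrpl53* was not tested.

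The large subunit binds the tRNAs' acceptor ends and forms the peptide bond, and the small subunit reads the mRNA. By symbol, the median level was 12.2 FPKM for the 49 large-subunit genes and 7.66 FPKM for the 29 small-subunit genes, a ratio of 1.60. *Mrps18a* and *Mrps30* carry a small-subunit symbol, but structures of the mitoribosome place their products in the large subunit. *Mrps36* is found in neither subunit and has since been assigned to the 2-oxoglutarate dehydrogenase complex. It had 15.0 FPKM (interval, 13.4 to 16.8). With genes placed by structure, 51 in the large and 26 in the small subunit, the ratio was 1.51. The ranges of both groups overlapped almost fully, from 2.47 to 54.8 FPKM for large-subunit genes above 0 and from 2.44 to 45.4 FPKM for small-subunit genes.

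Genes of proteins with a bacterial homologue had a median of 12.7 FPKM (n = 46), and genes of proteins specific to mitochondria one of 8.77 FPKM (n = 31), a ratio of 1.45. The direction turned when the 33 members that share exon bases with another gene were left out, with a ratio of 0.844. Placed by structure, the lowest median was that of the 10 small-subunit genes specific to mitochondria, at 5.53 FPKM, and the highest that of the 30 large-subunit genes with a bacterial homologue, at 13.9 FPKM. Within the first of these groups the levels still ran from 2.58 FPKM for *Mrps25* to 26.2 FPKM for *Mrps23*. *Mrps18a* and *Mrps18b*, although related to bacterial S18, were counted as specific to mitochondria, and counting them otherwise was not tested.

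The stalk of the large subunit recruits translation factors to the ribosome. *Mrpl12*, encoding the stalk protein, had 21.4 FPKM (interval, 19.6 to 23.3), and *Mrpl10*, whose product anchors it at the base, had 21.6 FPKM (interval, 19.9 to 23.5), so that the level of both could not be told apart. *Mrpl11*, encoding the other protein of the base, had 6.79 FPKM and no interval. These 3 genes differed less in fragments, with 517 for *Mrpl12*, 583 for *Mrpl10* and 346 for *Mrpl11*.

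The new peptide leaves the large subunit through the exit tunnel, close to the inner membrane into which it is inserted. The 7 genes of proteins around the exit ranged from 2.47 FPKM for *Mrpl47* to 20.3 FPKM for *Mrpl24*, with a median of 11.6 FPKM. That median was the level of *Mrpl45*, whose product meets the inner membrane (interval, 10.6 to 12.7). *Mrpl22* had 18.7 FPKM and *Mrpl44*, whose product carries a ribonuclease III fold, 13.0 FPKM. *Mrpl17* had 3.17 FPKM. *Mrpl23* had 4.44 FPKM over 4883 bases of annotated exon, but on its longest coding transcript of 736 bases it would have had 29.4 FPKM, above the 25.4 of *Mrpl22* on that scale.

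The central protuberance is the part of the large subunit that faces the small subunit near the tRNAs. Its 6 genes had a median of 9.09 FPKM, with *Mrpl18* (27.3 FPKM) above *Mrpl40* (14.9 FPKM), *Mrpl46* (9.40 FPKM), *Mrpl38* (8.77 FPKM), *Mrpl58* (5.95 FPKM) and *Mrpl48* (3.88 FPKM). The order was another in fragments not divided by length. There *Mrpl18* was still highest with 602, but *Mrpl48* followed with 499 and *Mrpl46* was lowest with 210. *Mrpl58* encodes a protein that is also a peptidyl-tRNA hydrolase and can release stalled chains. *Mrpl3*, whose product lies near the peptidyl transferase centre, had 5.97 FPKM (interval, 5.52 to 6.46).

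Mammals carry 3 genes for proteins related to bacterial S18, each with its own place in the mitoribosome. In the homology groups above only *Mrps18c* was counted as a bacterial homologue, and *Mrps18a* and *Mrps18b* as specific to mitochondria. *Mrps18c* was the highest with 13.1 FPKM (interval, 11.5 to 15.0), followed by *Mrps18a* with 6.34 FPKM (interval, 5.72 to 7.02) and *Mrps18b* with 4.79 FPKM (interval, 4.10 to 5.60). The intervals of these paralogues did not overlap, but the order of the first 2 turned with the length used. Divided by the longest coding transcript, *Mrps18a* would have had 26.4 and *Mrps18c* 22.1 FPKM. The intervals cover counting error only. In *Mrps18b*, 63.7% of 50-base windows are also in another annotated gene, against 22.4% in *Mrps18c* and 0% in *Mrps18a*. Exon bases shared with another gene made up 30.5% in *Mrps18b*, 23.2% in *Mrps18c* and 0% in *Mrps18a*. Whether this set the low value of *Mrps18b* was not tested. Among other small-subunit genes with a known role, *Mrps12*, whose product lies at the decoding centre, had 19.9 FPKM, *Mrps24*, encoding the homologue of S3, 23.1 FPKM and *Mrps28* 19.6 FPKM. *Mrps16* (8.42 FPKM) and *Mrps2* (6.86 FPKM), homologues of bacterial S16 and S2, were lower in FPKM, and their intervals did not reach those of the former 3 genes. In fragments not divided by length this order did not hold. *Mrps16* had 382 and *Mrps2* 316, beside 327 for *Mrps12*, 535 for *Mrps24* and 242 for *Mrps28*.

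Some mitoribosomal proteins carry no Mrp symbol and so lie outside the 78 genes. All 5 such genes on the list were detected, with a median of 9.96 FPKM, near that of the members. *Aurkaip1* had 40.9 FPKM (interval, 38.6 to 43.3) and *Chchd1* 24.7 FPKM, both encoding small-subunit proteins. *Dap3*, encoding a GTP-binding protein of the small subunit, had 9.96 FPKM, and *Ptcd3*, a small-subunit protein with pentatricopeptide repeats, 5.68 FPKM. *Gadd45gip1*, also called CRIF1, encodes a large-subunit protein named for its binding to GADD45 proteins. It had 8.38 FPKM (interval, 7.53 to 9.34). Of its exon bases, 42.0% are also exon of another gene, and whether this affected its value was not tested.

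The levels were then set beside those of genes that work with the mitoribosome. The 13 mitochondrially encoded respiratory chain subunits, which it translates, had a median of 443 FPKM, 45.7 times that of the members, but 9.04 times in fragments not divided by length. *mt-Co1*, a complex IV subunit, was highest with 6379 FPKM and *mt-Atp8*, an ATP synthase subunit, lowest with 3.42 FPKM. The 78 nuclear genes matched for respiratory chain and ATP synthase subunits, with which those products assemble, had a median of 34.8 FPKM, 3.59 times the median of the members. That ratio was 2.41 in fragments not divided by length. This list ran from *Cox8a* at 291 FPKM to a copy of *Atp5o* listed at 0, all of whose exon bases lie in another gene, and 76 of its genes reached 1 FPKM. The 79 genes of cytosolic ribosomal proteins had a median of 240 FPKM, 24.8 times that of the members. They ran from *Rplp1* at 1276 FPKM to *Rpl24* at 1.48 FPKM, below every member above 0, and 6 of the 79 genes were at or below the level of *Mrpl34*. Cytosolic ribosomal protein genes have many processed copies in the genome, which can take or lose fragments in counting.

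**Figure D2:**
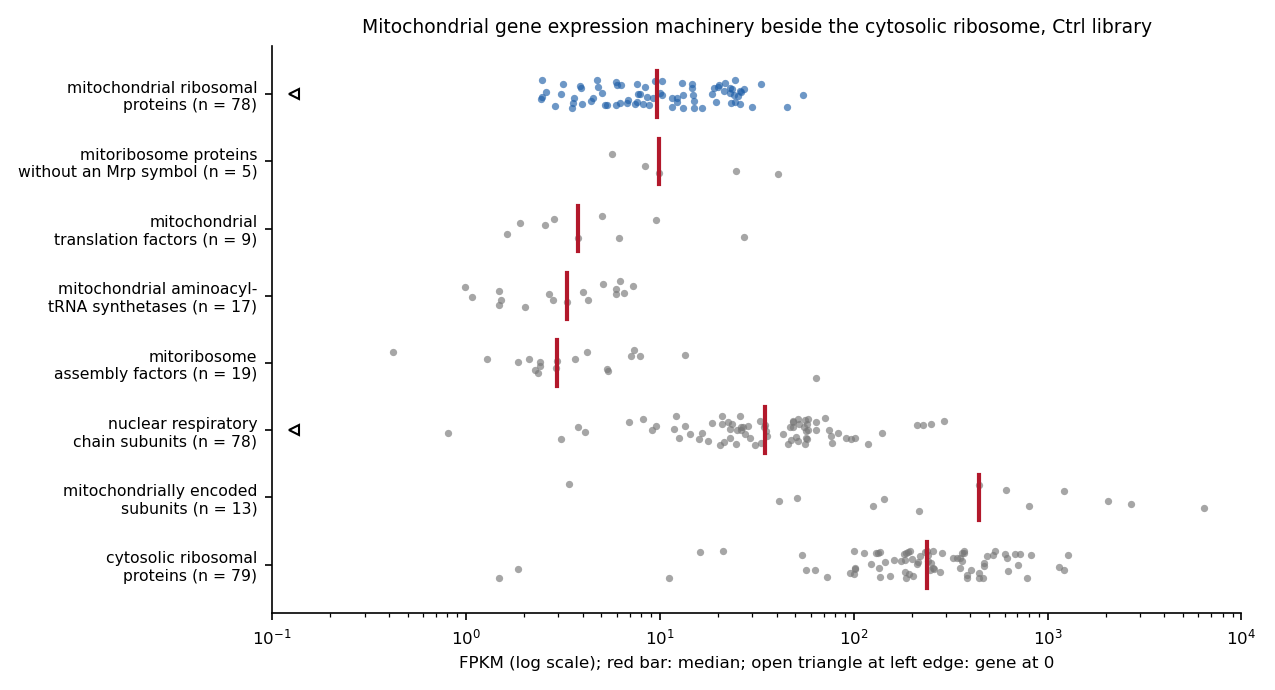
FPKM (log axis) of single genes, 1 point a gene, in 8 lists of the Ctrl library, with the median of each list as a red bar and genes at 0 as open triangles. The median of the 78 members lies above those of the mitochondrial translation factors, synthetases and assembly factors and below those of the respiratory chain and cytosolic ribosomal protein genes, while single genes overlap between lists, with *Rbfa* above every member.

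Genes for the accessory machinery of mitochondrial translation had lower medians than the ribosomal proteins themselves. Their exons are longer, and in fragments not divided by length the gap was smaller. There the medians were 0.576 (translation factors), 0.716 (aminoacyl-tRNA synthetases) and 0.476 (assembly factors) of the members' median, against 0.393, 0.343 and 0.304 in FPKM. The 9 translation factors all reached 1 FPKM, with a median of 3.81 FPKM. Among them *Tufm*, the elongation factor that delivers aminoacyl-tRNA, was highest with 27.3 FPKM and *Mtrf1*, a release factor, lowest with 1.63 FPKM. Of 17 mitochondrial aminoacyl-tRNA synthetase genes, 16 reached 1 FPKM, and the list ran from *Iars2* at 7.28 FPKM to *Nars2* at 0.991 FPKM with a median of 3.33 FPKM. All 17 synthetase genes were thus below the median of the mitochondrial ribosomal protein genes.

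Of 19 mitoribosome assembly factor genes, 18 reached 1 FPKM and the median was 2.95 FPKM. *Rbfa*, a factor of small-subunit maturation, had 63.6 FPKM, above every member, while *Ybey*, an endonuclease gene, was lowest with 0.422 FPKM. The multiple of *Rbfa* was not whole, so it has no interval, and 43.9% of its exon bases are also exon of another gene. Of 7 genes for transcription and replication of mitochondrial DNA, 6 were detected, from *Polg*, the DNA polymerase, at 10.7 FPKM to *Slirp*, encoding an RNA-binding protein, at 0.265 FPKM. Of the exon bases of *Slirp*, 97.8% are also exon of another gene, and whether this set its value was not tested. Of 8 genes for regulators of mitochondrial gene expression, 6 were detected. *Yy1* was highest with 26.8 FPKM, and *Ppargc1a*, encoding the coactivator PGC-1α, was lowest with 0.0192 FPKM from 2 fragments.

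The level of a member followed the length of its annotated exons. Spearman's rho between exon length and FPKM was -0.82 over the 77 members above 0, and Pearson's r on log2 values was -0.81. The points share 1 library, and exon length is itself the divisor in FPKM. Before division by length the fragments of the members were far more alike. They had a median of 401, quartiles of 303.5 and 533.5 and an SD on the log2 scale of 0.66, against 1.12 for FPKM. Fragments had a rho of only 0.13 with exon length. In 3 groups of 26 members, formed by exon length, the median level fell from 23.0 FPKM (607 to 1664 bases) over 10.3 FPKM to 4.63 FPKM (3332 to 8631 bases), while the median number of fragments was 341, 395.5 and 414.5.

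**Figure D3:**
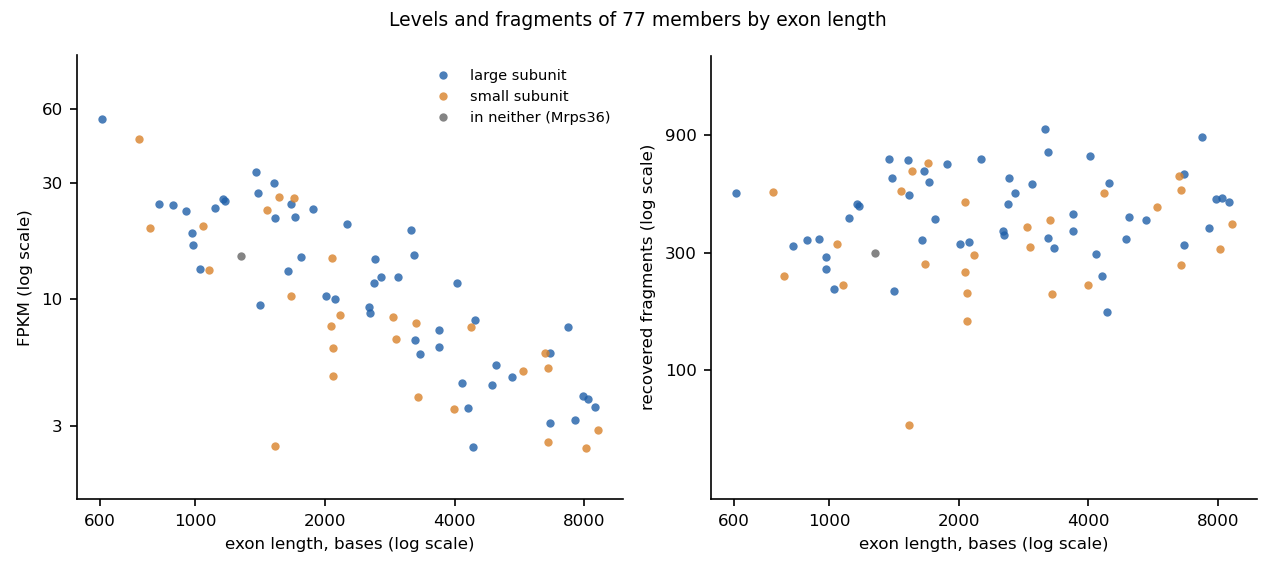
FPKM (left) and recovered fragments (right) against exon length in bases for the 77 members above 0, all axes logarithmic, coloured by subunit. The FPKM falls along the length axis (rho -0.82), while the fragments stay in a band with quartiles of 303.5 and 533.5 and show little slope (rho 0.13), with *Mrps6* alone far below at 60.

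The same relation was weaker in the other lists. Between exon length and FPKM, rho was -0.47 over the 79 cytosolic ribosomal protein genes, -0.43 over the 77 nuclear respiratory chain genes above 0 and -0.23 over the 10290 protein-coding genes at 1 FPKM or more. Between exon length and fragments, rho was 0.21, 0.29 and 0.27 in the same lists. The difference between these correlations was not tested. Genes of the mitoribosome are short, with a median coding length of 582 bases against 1330.5 bases for protein-coding genes at 1 FPKM or more and a median exon length of 2394 against 4365.5 bases. Genes of cytosolic ribosomal proteins (456 coding and 1770 exon bases) and of the nuclear respiratory chain (435 and 1737) were shorter still.

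Exon length counts every annotated exon, whether or not these cells use it, and for some members another length changes the level. *Mrpl33*, encoding the homologue of bacterial L33, was chosen for description after its values were seen. It had 7.64 FPKM and rank 49 in the order, but the second most fragments of any member, 883, spread over 7326 bases of annotated exon. Divided by its longest coding transcript of 478 bases instead, it would have had 117 FPKM and rank 1. *Mrps10*, the lowest above 0, would have had 19.4 FPKM and rank 38, since its longest coding transcript has 1018 bases and its exons together 8079. *Mrpl34* has 607 bases on both counts and kept 54.8 FPKM, at rank 4. On that scale the median of the members was 18.1 FPKM, and Spearman's rho with FPKM was 0.78 over 77 members. Which transcripts these cells make was not tested. Fragments had a rho of 0.11 with the length of the longest coding transcript.

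Of the 78 members, 33 share exon bases with another gene, or 42.3%, against 29.7% of protein-coding genes and 36.3% of those at 1 FPKM or more. Members with and without such overlap had similar medians, 9.40 FPKM (n = 33) and 9.98 FPKM (n = 45). The overlap exceeded 50% of exon bases in 3 members, *Mrpl53*, *Mrps34* (77.8%, with *Mapk8ip3* and *Nme3*) and *Mrps25* (69.8%, with *Nr2c2*), named here for this overlap. *Mrps34* had 7.70 FPKM and *Mrps25* 2.58 FPKM, and fragments from a gene and its overlapping neighbour cannot be told apart where the counting did not use strand.

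Head-to-head gene pairs, with starts on opposite strands no more than 1000 bases apart or with overlapping 5′ ends, were common among these genes. Such a protein-coding partner was found for 33 of the 78 members (42.3%), against 10.8% of all protein-coding genes and 17.7% of those at 1 FPKM or more. Among the nuclear respiratory chain genes 31 of 78 had one (39.7%), and among the cytosolic ribosomal protein genes 16 of 79 (20.3%). In 18 of the 33 members the starts lay apart, and in 15 the 5′ ends overlapped. Members with a partner had a median of 12.3 FPKM and the 45 without one a median of 7.66 FPKM. These medians are in FPKM, which followed exon length in the members, and these groups were not compared in fragments.

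Some pairs joined genes of related function. *Mrps11* and *Mrpl46*, encoding a protein of each subunit, face each other on chromosome 7 with overlapping 5′ ends and starts 412 bases apart. They had 8.58 FPKM (interval, 7.65 to 9.61) and 9.40 FPKM (interval, 8.21 to 10.8), which overlapped. *Mrps12* lies 172 bases from *Sars2*, the mitochondrial seryl-tRNA synthetase gene, in the stretch printed above. Here the levels were apart, and *Mrps12* (interval, 17.9 to 22.2 FPKM) was 4.98 times *Sars2* (interval, 3.49 to 4.58 FPKM). The 2 genes were closer in fragments not divided by length, with 327 for *Mrps12* and 209 for *Sars2*.

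Among pairs with the respiratory chain, *Mrpl36* and *Ndufs6*, a complex I subunit gene, had levels that could not be told apart, 25.8 and 26.4 FPKM. *Mrpl47* had 2.47 FPKM and its partner *Ndufb5*, another complex I subunit gene, 6.91 FPKM. *Mrpl43* had 29.8 FPKM and *Twnk*, the gene of the mitochondrial DNA helicase, 4.45 FPKM. *Mrpl49* lies 59 bases from *Fau*, which encodes a protein of the cytosolic ribosome, and had 23.3 FPKM while *Fau* had 703 FPKM. Facing starts thus went with like levels in some pairs and with levels 30.1 times apart in this one.

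Over all pairs the levels of the 2 genes went together only loosely, with a Spearman's rho of 0.21 over the 32 pairs. The points share 1 library. In FPKM the member was the higher gene for 23 of the 33 members, and 28 of the 33 partners reached 1 FPKM. These counts hold the pair of *Mrps11* and *Mrpl46* from both sides. Partners under 1 FPKM were *Lrrc46* (0.427 FPKM beside 21.6 FPKM for *Mrpl10*), *Cyb5rl*, *Oaz3*, *B430218F22Rik* and *Zfp661*. Partners well above their member included *Psma2*, a proteasome subunit gene, at 33.4 FPKM beside *Mrpl32* at 5.35 FPKM, and *Ncapd2*, a condensin subunit gene, at 61.2 FPKM beside *Mrpl51* at 11.6 FPKM.

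**Figure D4:**
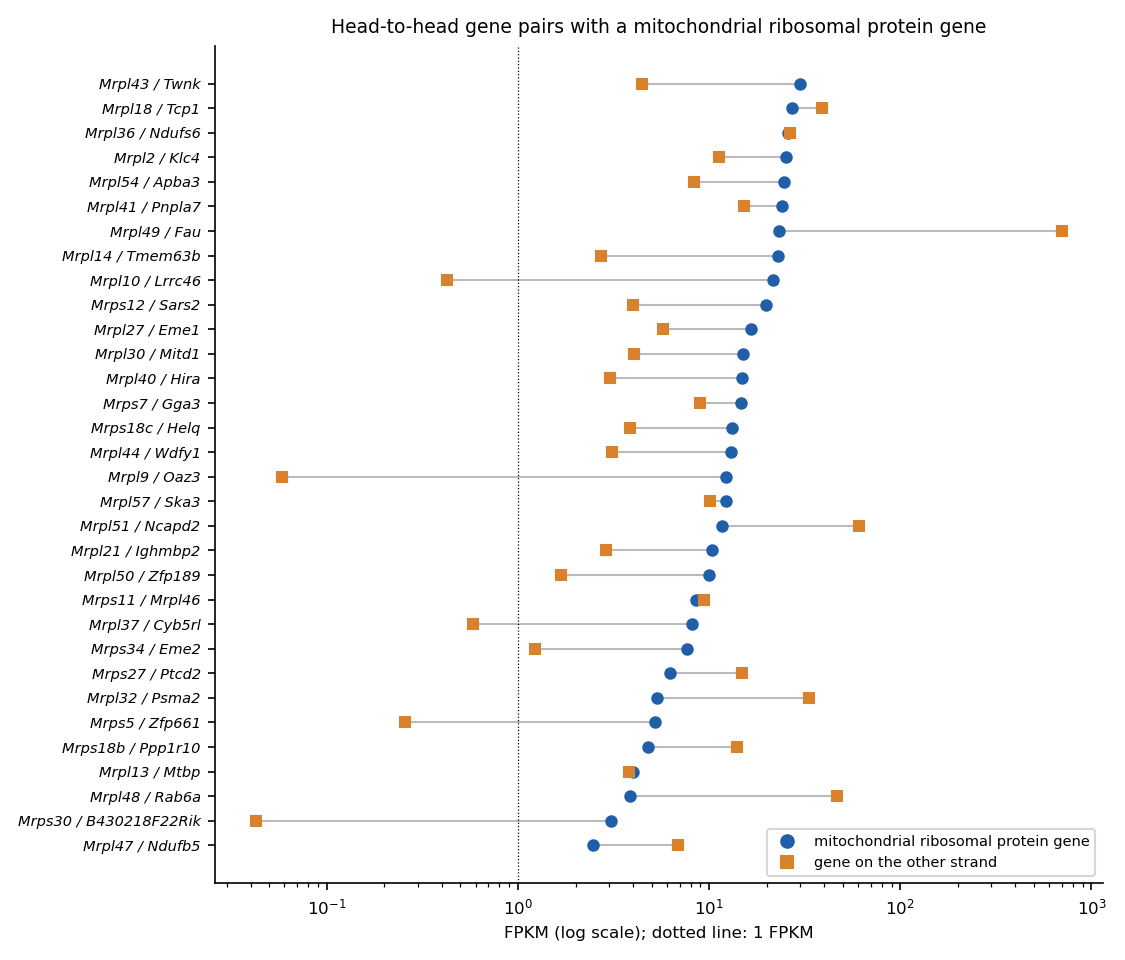
FPKM (log axis) of the 32 head-to-head pairs, with the mitochondrial ribosomal protein gene as a circle and the gene on the other strand as a square, ordered by the circle. Squares scatter on both sides of the circles, from 0.0424 FPKM for *B430218F22Rik* to 703 FPKM for *Fau*, and for the pair of 2 members *Mrps11* is the circle.

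The promoter windows of the members held motifs of factors known for nuclear genes of mitochondrial proteins. The 69 members with a RefSeq entry had 75 windows, and *Mrpl4*, *Mrpl13*, *Mrpl15*, *Mrpl19*, *Mrpl38*, *Mrpl54*, *Mrps28*, *Mrps34* and *Mrps35* had none. The ETS core CCGGAAG was found on either strand in 34.7% of the members' windows, against 8.86% of all 32851 windows in the table. The share was 18.7% for protein-coding genes at 1 FPKM or more and 36.8% for cytosolic ribosomal protein genes. For the NRF1 core GCGCATGC the shares were 10.7% of members' windows, 2.71% of all windows, 5.46% for genes at 1 FPKM or more and 4.41% for cytosolic ribosomal protein genes. For AAGATGGC, a core bound by YY1, they were 16.0%, 2.75%, 4.84% and 11.8% in the same order. Windows of nuclear respiratory chain genes held ETS letters in 23.9%, NRF1 letters in 14.9% and YY1 letters in 13.4%, the NRF1 share being above that of the members. The ETS and YY1 letters can overlap, as CCGGAAG ends in AAG.

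At least 1 of these 3 motifs was in the windows of 38 members and in none of the windows of 31, and 50.7% of members' windows against 13.3% of all windows held one. This combined share was not computed for genes at 1 FPKM or more, whose share for each motif was above that of all windows. With overlapping matches joined, 19 of 31 ETS sites and 7 of 11 NRF1 sites began within 100 bases before the start. In contrast, 8 of the 12 YY1 sites began after the start. GGGCGG, the core of SP1 sites, was in 52.0% of members' windows, 35.7% of all windows and 62.7% of windows of genes at 1 FPKM or more, and the TATA box letters TATAAA were in 6.67%, against 13.6% of all windows and 6.84% of those of genes at 1 FPKM or more. The E-box CACGTG, bound by MYC among others, was in 9.33% of members' windows, 7.15% of all windows and 10.3% of those of genes at 1 FPKM or more. One E-box of *Mrpl2* was counted in 3 overlapping windows, and by gene the direction turned, with 7.25% of members (5 of 69) and 8.09% of all genes in the table. A match is a run of letters and not shown to be bound.

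**Figure D5:**
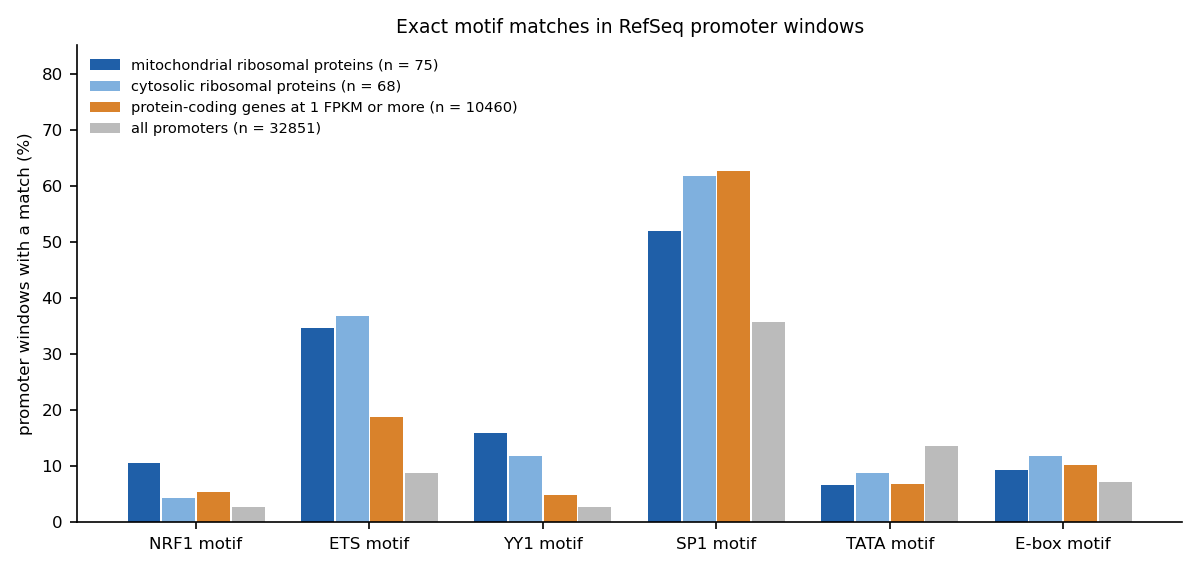
Share of RefSeq promoter windows (%) with an exact match on either strand to each of 6 motifs, for members, cytosolic ribosomal protein genes, protein-coding genes at 1 FPKM or more and all promoters, with the number of windows in the legend. The ETS, NRF1 and YY1 bars of the members (34.7%, 10.7% and 16.0%) stand above those of all promoters (8.86%, 2.71% and 2.75%), as does the SP1 bar (52.0% against 35.7%). The E-box bar (9.33% against 7.15%) does so only by window, since by gene the shares are 7.25% and 8.09%.

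Members with an ETS match had a median of 10.3 FPKM (n = 26) and those without 9.98 FPKM (n = 43). With an NRF1 match it was 8.42 FPKM (n = 8) and without 10.3 FPKM (n = 61), and with a YY1 match 8.38 FPKM (n = 12) and without 10.3 FPKM (n = 57). The medians were further apart for the E-box, with 24.5 FPKM for the 5 members with a match and 9.69 FPKM for the 64 without. These 5 ran from 8.18 FPKM for *Mrpl37* to 25.8 FPKM for *Mrpl36*. In fragments not divided by length they had 467 (*Mrpl2*), 643 (*Mrpl20*), 473 (*Mrpl36*), 576 (*Mrpl37*) and 223 (*Mrps18c*). The median over all members was 401. The genes of the factors themselves were transcribed in these cells, with 13.8 FPKM for *Gabpa*, 8.34 FPKM for *Nrf1*, 26.8 FPKM for *Yy1* and 16.2 FPKM for *Myc*.

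Members lay on 17 chromosomes, with most on chromosome 11, which carries 11 of them (14.1% of members, 7.45% of protein-coding genes). Processed pseudogenes with the symbol of a member were listed separately. *Mrpl23-ps1* had 5.57 FPKM (interval, 4.24 to 7.32) and *Mrpl23* itself 4.44 FPKM (interval, 3.99 to 4.93). In *Mrpl23*, 66.7% of 50-base windows are also in this pseudogene, so its level is uncertain. *Mrpl48-ps* had 1.89 FPKM, *Mrps36-ps1* and *Mrps36-ps2* 0.414 and 0.410 FPKM from 2 fragments each, and *Mrps36-ps3* was at 0. In all, 17 members shared at least 20% of their 50-base windows with another annotated gene, and 29 shared none.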

How the data were processed

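RNA of sorted c-kit+ BM cells of Ctrl mice was sequenced, and 1 library was used. The authors deposited 1 FPKM value per Ensembl gene, fragments divided by gene length and library total. The submitters' processing notes name HISAT2 2.0.5, featureCounts 1.5.0-p3 and mm10, while the annotation, the use of strand and the treatment of fragments on several genes are not given in the sources used here. GENCODE M21 (GRCm38) gave names, lengths and coordinates for all but 37 of the 54532 identifiers. Fragments were recovered as FPKM times exon length over a common step, and the recovery was tested on simulated data. The multiples of *Mrpl11*, *Mrpl16*, *Mrpl28*, *Mrpl43* and *Mrpl49*, all on chromosomes 17 and 19, were not whole, and were rounded without an interval. A member was called detected at 1 FPKM. With 1 library no test was possible, and medians, ratios and counts are descriptions. Depth was 17113323 fragments, and for a gene at 0 the limit is 3 fragments.

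Members, gene lists, motifs and alternatives were chosen with earlier results of these data known. Named with values are the 10 highest and 10 lowest members, the stalk, exit, central protuberance and S18 groups, *Mrps30*, *Mrps36*, members with a known role, members under 1 FPKM, the mitoribosomal proteins without an Mrp symbol, and the highest and lowest gene of each other list. Some genes of these lists are not named here. Genes named for overlap, length, pairing or promoters were chosen after their values were seen. Subunit, homology and site of each protein were assigned by hand from general knowledge of mitoribosome structures. The list of nuclear respiratory chain genes was matched by symbol, and holds *Atp5s* and *Atp5o* under 2 identifiers. The alternatives were other detection minimums, other sets of members, other lengths, other totals, pseudocounts and subunits by structure. Scripts ran in Python 3.11.15 and took tables from pandas 2.3.3, arrays from numpy 2.4.6, statistics from scipy 1.17.1 and plots from matplotlib 3.10.9.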

Additional observations from a re-analysis of the deposited data

How the results depend on the processing

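With a detection minimum of 10 FPKM, 38 members were detected in place of 77. The median of 9.69 FPKM became 18.1 per longest coding transcript, 401 as fragments not divided by length and 13.1 FPKM without the 10 most abundant genes in the total. The share of the summed FPKM of 0.238% became 0.255% with the 5 proteins without an Mrp symbol and without *Mrps36*, 0.146% for members without exonic overlap, 0.321% without the 10 most abundant genes, 0.248% without mitochondrially encoded genes and 0.195% as fragments. The ratio of large-subunit to small-subunit medians was 1.33 as fragments. The ratio of bacterial-homologue to mitochondria-specific medians turned from 1.45 to 0.844 for members without exonic overlap, and the cause was not tested. The cytosolic median was 30.3 times the members' per coding transcript and 18.4 times as fragments. The SD of the log2 level was 1.07 with a pseudocount of 1 FPKM and 1.33 with 0.1 FPKM. It was 1.13 with the 5 proteins added and *Mrps36* left out, 1.14 without exonic overlap and 1.11 for whole fragments. It was 1.14 per coding transcript and 0.66 as fragments. The other 21 values moved by less than counting error or, for counts and the SD, did not change. No paired analysis was possible because there is 1 library. Among members above 0, *Mrps6* rests on the fewest fragments, 60.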
